A study of Mus musculus with 14 samples.

Results

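The genes described here are 10 members of the bone morphogenetic protein (BMP) and transforming growth factor beta (TGF-β) signalling pathways. They were taken by symbol from the deposited CEL-Seq tables, and all 10 were found among the 19322 genes listed at E10, the 19424 genes listed at E11 and the 19425 genes listed for whole clusters. The study asked how haematopoietic stem cells arise from the endothelium of the mouse embryonic aorta. Non-haemogenic endothelial (non-HE) cells, haemogenic endothelial (HE) cells and cells undergoing endothelial-to-haematopoietic transition (EHT) came from ICR embryos, for which the labels give the genotype Gfi+/tomato/ Gfi1b+/GFP. They were sorted from pooled aorta-gonad-mesonephros regions, non-HE cells as Cdh5+ Gfi1- Gfi1b- c-kit-, HE cells as Gfi1+ without c-kit, and EHT cells as Gfi1+ and c-kit+. Cells of intra-aortic haematopoietic clusters (IAHCs, c-kit+CD31+ at both stages and also c-kit+ at E11), E11 pre-HSCs (c-kit+ Cdh5+, type I without and type II with CD45), c-kit+ yolk sac progenitors (YS HSPCs) and mechanically picked whole IAHCs (wIAHCs) came from wild-type C57BL/6 embryos. EHT cells and IAHC cells or pre-HSCs therefore differed in strain, reporter alleles and sorting as well as in cell type, and these cannot be told apart. E10 embryos had 28 to 32 somite pairs and E11 embryos more than 40. The columns taken as E10 non-HE cells carry a name of early E11 although they are in the E10 table, so the E10 non-HE values hold only if that table gives their stage. Column names within a labelled stage also differ in age, with E10.5 for both E10 HE sets and 1 of 3 E10 EHT sets, late E10 for the other EHT sets, and E11.5 and late E11 for the 2 E11 non-HE sets, so the spread between sets may include age.

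BMP ligands bind complexes of a type I and a type II receptor, which phosphorylate the receptor-activated Smads, and these enter the nucleus to regulate transcription. TGF-β signals through its own receptor pair, and the co-receptor endoglin modulates signalling through ALK1 in endothelium. The inhibitory Smads limit both branches and are themselves induced by them, and BMP4 is known as a signal of the ventral mesenchyme beneath the embryonic aorta.

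The tables held 546 E10 cells of 5 populations at 3000 transcripts per cell and 575 E11 cells of 8 populations at 5000 transcripts per cell, so levels are given within a stage unless E11 cells were thinned to 3000. Each population at a stage was 1 sample in the labels, except that type I and type II pre-HSCs shared 1, so no test was run between populations. Levels are mean transcripts per cell with exact Poisson intervals, shares of cells have exact Clopper-Pearson intervals, and both are at 95% and cover counting error only. A gene was called between populations when its level, after adding 0.1 transcripts per cell, differed by at least 2-fold and reached 0.2 in either population. Log2 ratios in the text are without this addition. Where no cell had a transcript, the limit given is 3 cells of the total, and it limits cells with a sampled transcript, not cells that express the gene. The sorted sets in which a population was collected, from 1 to 5 each, give the other view of its spread. Summed over 7 endothelial markers (*Cdh5*, *Pecam1*, *Kdr*, *Tek*, *Tie1*, *Vwf* and *Esam*), the mean level ran 28.0, 17.3, 7.17, 4.66 and 0.397 transcripts per cell in E10 non-HE cells, HE cells, EHT cells, IAHC cells and YS HSPCs, with all 7 detected in each population but the last, where *Kdr* was at 0. At E11 it was 29.7 in non-HE cells, 37.0 in HE cells, 14.9 in EHT cells, 9.16 and 5.0 in type I and type II pre-HSCs, 8.5 and 4.9 in c-kit+CD31+ and c-kit+ IAHC cells and 1.3 in YS HSPCs. Endothelial identity thus moved with the populations in which the members are described, and its part in their levels was not tested. Macrophage markers stood at 3.93 transcripts per cell in E11 EHT cells, where 6 of 7 were detected, and from 0 to 0.304 in the other populations. In E11 EHT cells 2 of the 46 held 4 or more of these markers, and without such cells the members called lower were as many as with them. Summed over 7 mesenchymal markers, the mean level was 0.698, 0.429, 0.0942 and 0.0411 from E10 non-HE cells to IAHC cells, with *Pdgfrb* at 0 in each, and at E11 it was 1.4 for non-HE, 1.46 for HE and 0.370 for EHT cells and between 0.309 and 1.36 for pre-HSCs and IAHC cells. Summed over 7 erythroid markers, E11 EHT cells stood at 0.174, type I pre-HSCs at 2.9 (*Gata1* and *Alas2* at 0) and type II pre-HSCs at 2.16 (*Klf1* and *Hba-a1* at 0), and the part of either list in the members' levels was not tested.

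In outline, *Acvrl1*, *Bmpr2* and *Smad6* were higher in non-HE and HE cells than in IAHC cells and pre-HSCs, and so was *Smad7*, which at E10 was at like levels in HE and EHT cells. *Eng* had its lowest mean within the aorta in EHT cells, with higher means in IAHC cells and pre-HSCs. Of the steps from EHT cells, only that to type I pre-HSCs was called higher, and not with 0.5 transcripts per cell added. *Tgfbr2* stood at like levels in HE and EHT cells, *Smad5* stood between 0.194 and 0.5 transcripts per cell within the aorta, and *Bmp4* was mainly in non-HE cells. The RefSeq promoter table (GRCm38.p6, the build the labels name as mm10) had entries for 8 of the 10 members, and the 250 bases before the start are shown for 1 gene of each main pattern, with GGAA, the core of sites for ETS factors, and its reverse complement TTCC in capitals. *Smad6* (chr9:64022060-64022309, minus strand) stands for the genes that were lower from HE to EHT cells, *Eng* (chr2:32646345-32646594, plus strand) for the gene with a dip and *Tgfbr2* (chr9:116175364-116175613, minus strand) for the gene that was kept.
Smad6: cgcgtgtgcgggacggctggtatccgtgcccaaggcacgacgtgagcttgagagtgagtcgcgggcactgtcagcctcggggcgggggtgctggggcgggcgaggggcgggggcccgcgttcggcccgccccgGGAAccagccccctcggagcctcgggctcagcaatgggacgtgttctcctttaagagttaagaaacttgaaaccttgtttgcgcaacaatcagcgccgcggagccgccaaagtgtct
Eng: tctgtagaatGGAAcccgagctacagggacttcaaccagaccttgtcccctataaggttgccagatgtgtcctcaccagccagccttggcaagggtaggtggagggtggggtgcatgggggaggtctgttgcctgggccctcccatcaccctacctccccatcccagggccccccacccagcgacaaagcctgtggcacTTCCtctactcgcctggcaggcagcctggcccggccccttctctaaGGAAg
Tgfbr2: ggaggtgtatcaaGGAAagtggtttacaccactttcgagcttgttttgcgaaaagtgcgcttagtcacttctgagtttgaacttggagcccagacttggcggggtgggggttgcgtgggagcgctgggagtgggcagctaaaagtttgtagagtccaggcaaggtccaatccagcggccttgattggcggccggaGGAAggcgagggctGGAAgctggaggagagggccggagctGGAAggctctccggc
GGAA or TTCC matched at 1 place in the *Smad6* window, 3 in the *Eng* window and 4 in the *Tgfbr2* window, and in all 10 windows of the 8 members, beside 93.4% of the 32851 windows in the table. CAGACA, the core of a Smad binding element, or TGTCTG was in 0 of these 10 windows and in 17.1% of all. GGCGCC, a GC-rich sequence bound by BMP Smads that reads the same on both strands, was in 3 of the 10, those of *Bmpr1a*, *Bmpr2* and 1 of the 3 windows of *Smad5*, and in 9.59% of all. The members' windows had 58.4% to 78.8% G and C, where the median of all windows was 52.4%. These are matches of letters, not binding sites.

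In the GENCODE annotation of GRCm38 the members lie at chr14:46383520-46390669 (*Bmp4*), chr14:34410734-34503341 (*Bmpr1a*), chr15:101128522-101145336 (*Acvrl1*), chr1:59763400-59879014 (*Bmpr2*), chr9:116084293-116175360 (*Tgfbr2*), chr2:32646595-32682669 (*Eng*), chr8:79338395-79399518 (*Smad1*), chr13:56703010-56742377 (*Smad5*) and chr9:63953076-64022059 (*Smad6*), with *Smad7* on chromosome 18. The chromosome that the deposited tables give for each was the same.

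*Bmp4*, the ligand of the group, was highest in non-HE cells. At E10 its mean was 0.372 transcripts per cell in non-HE cells (16 transcripts in 43 cells) and 0.0714 in HE cells (7 in 98), and it was at 0 in 191 EHT cells, 73 IAHC cells and 141 YS HSPCs, which allows shares of cells with a transcript of up to 1.6%, 4.11% and 2.13%. The E10 non-HE sets stood at 0.25 and 0.6, and the HE sets at 0.0492 and 0.108, so the sets did not overlap. HE cells were 5.21-fold lower than non-HE cells (log2 ratio -2.38, interval -3.90 to -1.02). At E11 it stood at 0.5 in non-HE cells, 0.109 in HE cells and between 0 and 0.0225 in the other 6 populations. The E11 ratio of HE to non-HE cells was close in size, 4.6-fold (log2 ratio -2.20, interval -4.02 to -0.67). The mesenchymal markers were likewise highest in non-HE cells at E10 (0.698, beside 0.429 in HE cells) but not at E11 (1.4, beside 1.46), and their part in the *Bmp4* level was not tested. A transcript of *Bmp4* was seen in 10 of 43 E10 and 10 of 30 E11 non-HE cells. The level in non-HE cells differed little between stages once E11 cells were thinned to 3000 transcripts (0.333 at E11 and 0.372 at E10, log2 ratio -0.16, interval -1.46 to 1.07).

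*Bmpr1a*, which encodes the type I BMP receptor ALK3, was scarce throughout. At E10 the mean was 0.140 transcripts per cell in non-HE cells, 0.0918 in HE cells, 0.0209 in EHT cells, 0.0411 in IAHC cells and 0.00709 in YS HSPCs. The E11 means were 0.2 in non-HE cells, 0.261 in HE cells, 0.0870 in EHT cells, 0.0161 and 0.0182 in type I and type II pre-HSCs, 0.0746 in c-kit+CD31+ and 0.0562 in c-kit+ IAHC cells and 0.0435 in YS HSPCs. Endothelial populations were above the rest at both stages, but the intervals of neighbouring populations mostly overlapped. Between E10 HE and EHT cells the log2 ratio was -2.13 (interval -4.28 to -0.29), from 9 transcripts in 98 cells and 4 in 191, and at E11 it was -1.58 (interval -3.67 to 0.14). *Bmpr1a* reached the minimum of 0.2 for a call in E11 non-HE and HE cells alone.

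*Acvrl1*, which encodes ALK1, the type I receptor that endothelial cells use for BMP9 and BMP10, was lower in EHT than in HE cells at both stages. At E10 its mean was 0.628 transcripts per cell in non-HE cells, 0.398 in HE cells, 0.0890 in EHT cells, 0.0411 in IAHC cells and 0 in YS HSPCs. A transcript was seen in 46.5% of non-HE cells, 29.6% of HE cells, 8.38% of EHT cells and 4.11% of IAHC cells. EHT cells were 4.5-fold lower than HE cells (log2 ratio -2.16, interval -3.08 to -1.30), and the 3 EHT sets (0.0690 to 0.109) lay below both HE sets (0.324 and 0.443). From EHT to IAHC cells of E10 the log2 ratio was -1.11 (interval -3.53 to 0.67), from 17 and 3 transcripts, and was not counted for a call. In the E11 table the means were 0.733 in non-HE cells, 0.978 in HE cells, 0.239 in EHT cells, 0.161 in type I pre-HSCs, 0.0364 in type II pre-HSCs, 0.0597 in c-kit+CD31+ IAHC cells, 0.0562 in c-kit+ IAHC cells and 0 in YS HSPCs. The step from HE to EHT cells was of the same order at E11, 4.09-fold (log2 ratio -2.03, interval -3.13 to -1.06). IAHC cells were a further 4.01-fold below EHT cells (log2 ratio -2.0, interval -3.31 to -0.68). In type I pre-HSCs all 10 transcripts came from 1 of 3 sorted sets, which held 34 of the 62 cells and stood at 0.294, while the other sets were at 0. The difference of type II from type I pre-HSCs (log2 ratio -2.15, interval -5.38 to 0.08) rests on that set. *Acvrl1* was not seen in any of 141 E10 or 46 E11 YS HSPCs, which allows shares of up to 2.13% and 6.52%.

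*Bmpr2*, the type II receptor of the BMP branch, was lower in EHT than in HE cells at both stages too. At E10 its mean was 0.628 transcripts per cell in non-HE cells, 0.531 in HE cells, 0.199 in EHT cells, 0.0822 in IAHC cells and 0.0426 in YS HSPCs. Non-HE and HE cells were not separated beyond counting error (log2 ratio -0.24, interval -0.94 to 0.48), and their sets overlapped (0.467 and 0.714 against 0.405 and 0.607). EHT cells were 2.67-fold lower than HE cells (log2 ratio -1.4, interval -2.06 to -0.78). E11 cells gave 0.933 in non-HE cells, 0.891 in HE cells, 0.391 in EHT cells, 0.226 and 0.236 in type I and type II pre-HSCs, 0.214 and 0.281 in c-kit+CD31+ and c-kit+ IAHC cells and 0.130 in YS HSPCs. The E11 step from HE to EHT cells was 2.28-fold (log2 ratio -1.19, interval -2.07 to -0.36). Beyond EHT, pre-HSCs and IAHC cells of E11 lay within 0.214 to 0.281, and their intervals overlapped. The 2 non-HE sets of E11 were far apart, at 1.64 in the 11 cells named E11.5 and 0.526 in the 19 named late E11.

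*Tgfbr2*, the type II receptor of TGF-β, was at like levels in HE and EHT cells. At E10 its mean was 0.419 transcripts per cell in non-HE cells, 0.357 in HE cells, 0.377 in EHT cells, 0.233 in IAHC cells and 0.0567 in YS HSPCs. The log2 ratio of EHT to HE cells was 0.08 at E10 (interval -0.52 to 0.70) and 0.17 at E11 (interval -0.56 to 0.90). With these intervals a 2-fold loss at this step lay outside what counting error allowed at either stage. E11 means were 0.733 in non-HE cells, 0.696 in HE cells, 0.783 in EHT cells, 0.452 in type I pre-HSCs, 0.382 in type II pre-HSCs, 0.378 in c-kit+CD31+ IAHC cells, 0.315 in c-kit+ IAHC cells and 0.109 in YS HSPCs. The lower levels came after EHT, with a log2 ratio of IAHC to EHT cells of -1.05 at E11 (interval -1.64 to -0.44) and -0.69 at E10 (interval -1.55 to 0.08), neither of which was called. YS HSPCs were lower than IAHC cells, 4.10-fold at E10 (log2 ratio -2.04, interval -3.46 to -0.75) and 3.48-fold at E11 (log2 ratio -1.80, interval -3.46 to -0.51). These were called at both stages.

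*Eng*, which encodes the co-receptor endoglin, dipped in EHT cells. At E10 the mean was 1.93 transcripts per cell in non-HE cells, 1.1 in HE cells, 0.550 in EHT cells, 0.753 in IAHC cells and 0.0922 in YS HSPCs. At E11 it was 1.93 in non-HE cells, 2.22 in HE cells, 0.609 in EHT cells, 1.53 in type I pre-HSCs, 1.16 in type II pre-HSCs, 1.2 in c-kit+CD31+ IAHC cells, 0.933 in c-kit+ IAHC cells and 0.370 in YS HSPCs. EHT cells thus had the lowest mean of the aortic populations at both stages, below the cells sorted as earlier and those sorted as later. The share of E11 cells with a transcript was 89.1% in HE cells, 45.7% in EHT cells and 69.4% in type I pre-HSCs. From HE to EHT cells the log2 ratio was -1.03 at E10 (interval -1.43 to -0.63) and -1.87 at E11 (interval -2.52 to -1.25). The E11 step was called and the E10 step was not. The E10 HE sets differed, with 0.676 in 37 cells and 1.4 in 61 cells, and the first stood beside EHT sets of 0.506 to 0.675. From EHT cells to type I pre-HSCs *Eng* was 2.52-fold higher (log2 ratio 1.33, interval 0.71 to 2.00), and each of the 3 type I sets (1.2 to 2.38) and 3 type II sets (1.0 to 1.3) stood above the single E11 EHT set. IAHC cells stood 2.00-fold above EHT cells at E11 (log2 ratio 1.00, interval 0.43 to 1.6) and 1.4-fold at E10 (log2 ratio 0.45, interval -0.04 to 0.94). Neither difference was called. Here the strain changed between the groups, as given above. YS HSPCs were the lowest of all, 8.17-fold below IAHC cells at E10 (log2 ratio -3.03, interval -4.03 to -2.14) and 3.30-fold at E11 (log2 ratio -1.72, interval -2.52 to -1.01). Non-HE cells had 0.967 transcripts per cell of *Eng* at E11 after thinning and 1.93 at E10 (log2 ratio -1.0, interval -1.66 to -0.37).

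**Figure D1:**
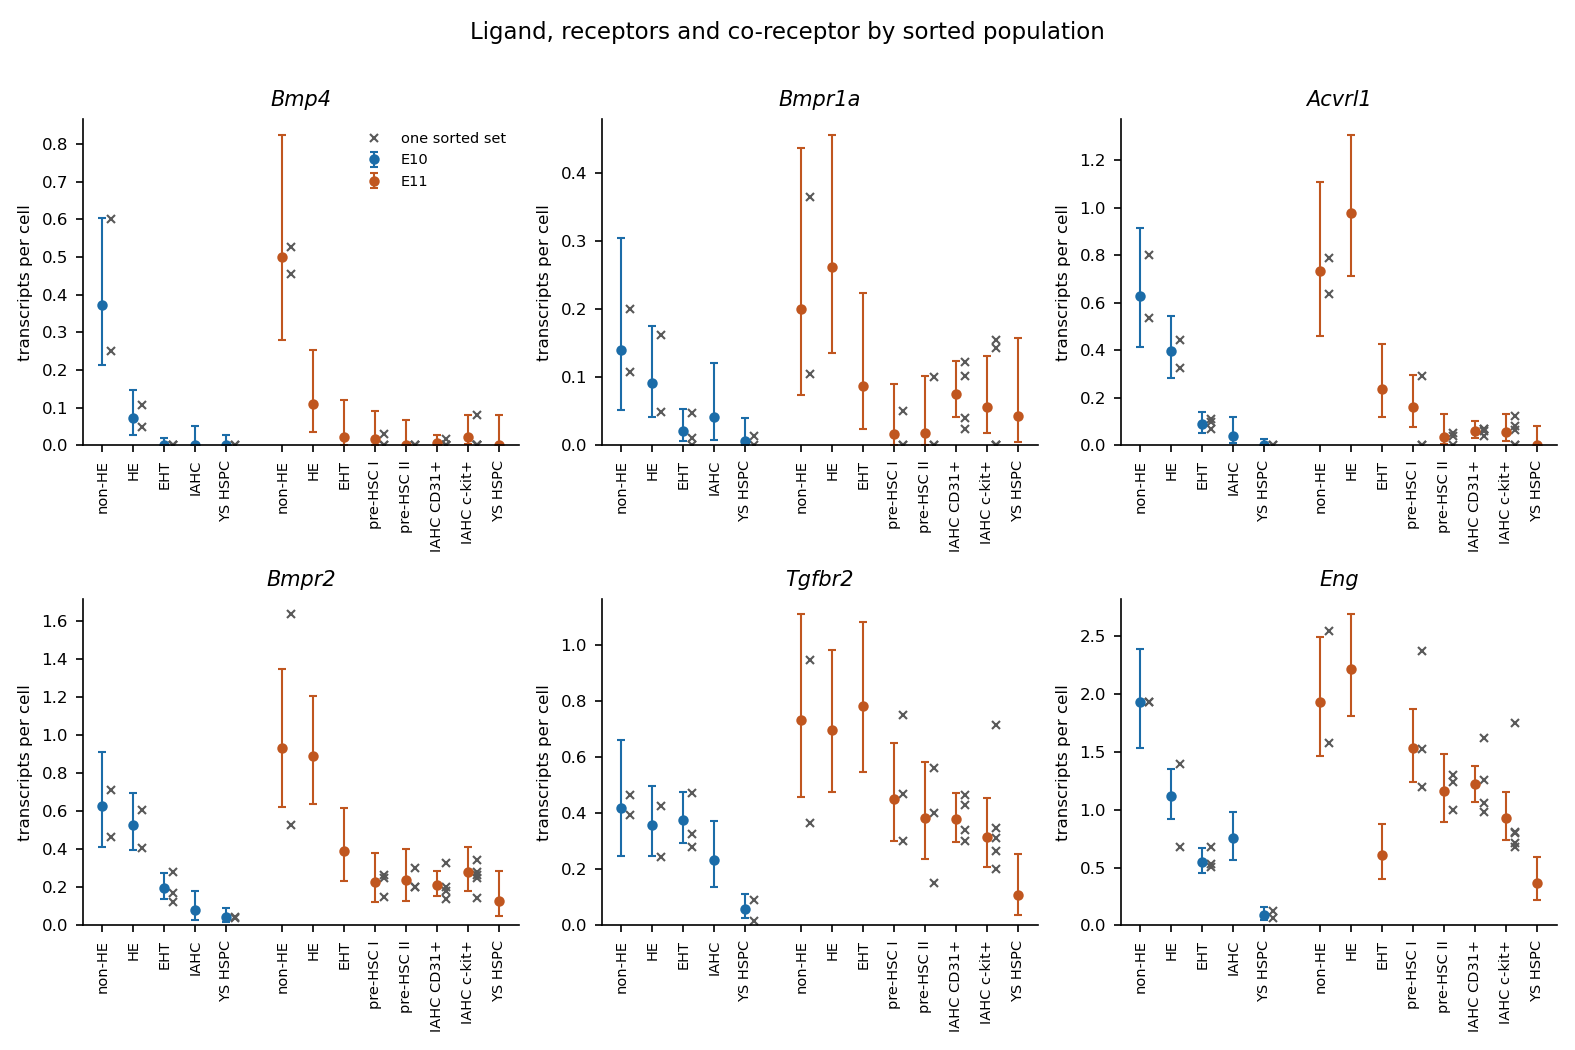
Mean transcripts per cell (vertical axis) of *Bmp4*, 2 type I receptors, 2 type II receptors and *Eng* in each sorted population (horizontal axis), at E10 (blue, 3000 transcripts per cell) and E11 (orange, 5000 transcripts per cell). Bars are exact 95% Poisson intervals, crosses are single sorted sets of populations with more than 1 set; *Acvrl1* and *Bmpr2* step down from HE to EHT cells, *Tgfbr2* does not, and *Eng* is lowest in EHT cells within the aorta.

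*Smad1* and *Smad5* encode the Smads that BMP type I receptors phosphorylate. *Smad1* ranged from 0.0890 to 0.143 transcripts per cell in the 4 aortic populations of E10 and was 0.00709 in YS HSPCs (1 transcript in 141 cells). At E11 it was 0.167 in non-HE cells, 0.0217 in EHT cells, 0.129 and 0.145 in type I and type II pre-HSCs, 0.0995 and 0.135 in c-kit+CD31+ and c-kit+ IAHC cells and 0.0870 in YS HSPCs. No transcript was found in the 46 E11 HE cells (3-cell limit 6.52%), while 13 of 98 E10 HE cells had one. With E11 cells thinned, E11 HE cells stayed at 0 and E10 HE cells had 14 transcripts. All E11 HE cells came from 1 sorted set. Thinned values of 0 in E11 non-HE and EHT cells, each from 5 and 1 transcripts before thinning, lie near the level of single transcripts and were not read further.

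*Smad5* had its highest mean in non-HE cells at both stages, within counting error of HE cells. The log2 ratio of HE to non-HE cells was -1.03 at E10 (interval -2.05 to 0.006) and -0.62 at E11 (interval -1.75 to 0.52). The E11 non-HE sets stood at 0.727 (11 cells) and 0.368 (19 cells), the second below the type I pre-HSC mean. At E10 *Smad5* stood at 0.395 transcripts per cell in non-HE cells, 0.194 in HE cells, 0.230 in EHT cells, 0.233 in IAHC cells and 0.170 in YS HSPCs. The E11 means were 0.5 in non-HE cells, 0.326 in both HE and EHT cells, 0.403 and 0.255 in type I and type II pre-HSCs, 0.378 and 0.303 in c-kit+CD31+ and c-kit+ IAHC cells and 0.174 in YS HSPCs. Between HE and EHT cells the log2 ratio was 0.25 at E10 (interval -0.56 to 1.11) and 0.00 at E11 (interval -1.13 to 1.13), and it was called in none of the 11 comparisons. The lowest level at each stage was in YS HSPCs, with a log2 ratio to IAHC cells of -0.45 at E10 (interval -1.41 to 0.54) and -1.1 at E11 (interval -2.38 to -0.07).

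*Smad6*, an inhibitory Smad that acts mainly on the BMP branch, was lower at each successive population of E10. Its mean was 1.23 transcripts per cell in non-HE cells, 0.827 in HE cells, 0.325 in EHT cells, 0.0548 in IAHC cells and 0 in YS HSPCs. The sorted sets did not overlap between populations, at 1.07 and 1.32 for non-HE cells, 0.676 and 0.918 for HE cells and from 0.297 to 0.375 for EHT cells. The log2 ratio was -1.3 from HE to EHT cells (interval -1.85 to -0.85) and -2.57 from EHT to IAHC cells (interval -4.49 to -1.14). At E11 the means were 1.67 in non-HE cells, 2.07 in HE cells, 0.913 in EHT cells, 0.226 and 0.109 in type I and type II pre-HSCs, 0.164 and 0.180 in c-kit+CD31+ and c-kit+ IAHC cells and 0.0652 in YS HSPCs. EHT cells were 2.26-fold below HE cells (log2 ratio -1.18, interval -1.74 to -0.64). Type I pre-HSCs were 4.04-fold below EHT cells (log2 ratio -2.02, interval -3.0 to -1.11), and IAHC cells 5.56-fold (log2 ratio -2.48, interval -3.18 to -1.78). The single sets of pre-HSCs ran from 0 to 0.353 and those of IAHC cells from 0.0625 to 0.269, all below the E11 EHT set. A transcript was seen in 71.7% of E11 HE cells, 23 of the 46 EHT cells and 15.4% of c-kit+CD31+ IAHC cells. YS HSPCs of E10 had 0 transcripts in 141 cells, beside 4 transcripts in 73 IAHC cells.

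*Smad7*, the inhibitory Smad of both branches, differed between the stages in HE cells. At E10 it was 0.558 transcripts per cell in non-HE cells, 0.112 in HE cells, 0.120 in EHT cells, 0.0274 in IAHC cells and 0.0142 in YS HSPCs. The step at E10 thus lay between non-HE and HE cells, 4.97-fold (log2 ratio -2.31, interval -3.49 to -1.23), with sets at 0.333 and 0.679 against 0.0811 and 0.131, and not between HE and EHT cells (log2 ratio 0.10, interval -0.99 to 1.3). E11 cells gave 0.6 in non-HE cells, 0.913 in HE cells, 0.304 in EHT cells, 0.0806 and 0.0545 in type I and type II pre-HSCs, 0.0697 and 0.0899 in c-kit+CD31+ and c-kit+ IAHC cells and 0.0435 in YS HSPCs. At E11 HE cells were not below non-HE cells (log2 ratio 0.61, interval -0.22 to 1.49), and the step lay between HE and EHT cells, 3.0-fold (log2 ratio -1.58, interval -2.57 to -0.68). With E11 cells thinned to 3000 transcripts, HE cells had 0.565 transcripts per cell at E11 and 0.112 at E10 (log2 ratio 2.33, interval 1.27 to 3.50). A transcript was seen in 10 of 98 E10 HE cells and 23 of 46 E11 HE cells. The E11 HE cells came from 1 sorted set, and the 2 non-HE sets of E11 stood at 0.316 and 1.09, so sets of 1 population spanned more than the E11 difference between non-HE and HE cells. Whether the difference between the stages holds in further sets was not tested. Type I pre-HSCs were 3.77-fold below EHT cells (log2 ratio -1.92, interval -3.74 to -0.36) and IAHC cells 4.37-fold (log2 ratio -2.13, interval -3.31 to -0.95). Thinned to 3000 transcripts these levels were 0.0870 in EHT cells (4 transcripts), 0.0448 in IAHC cells and 0.0645 in type I pre-HSCs, all below the minimum for a call, so *Smad7* was called at the deposited depth and not after thinning.

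**Figure D2:**
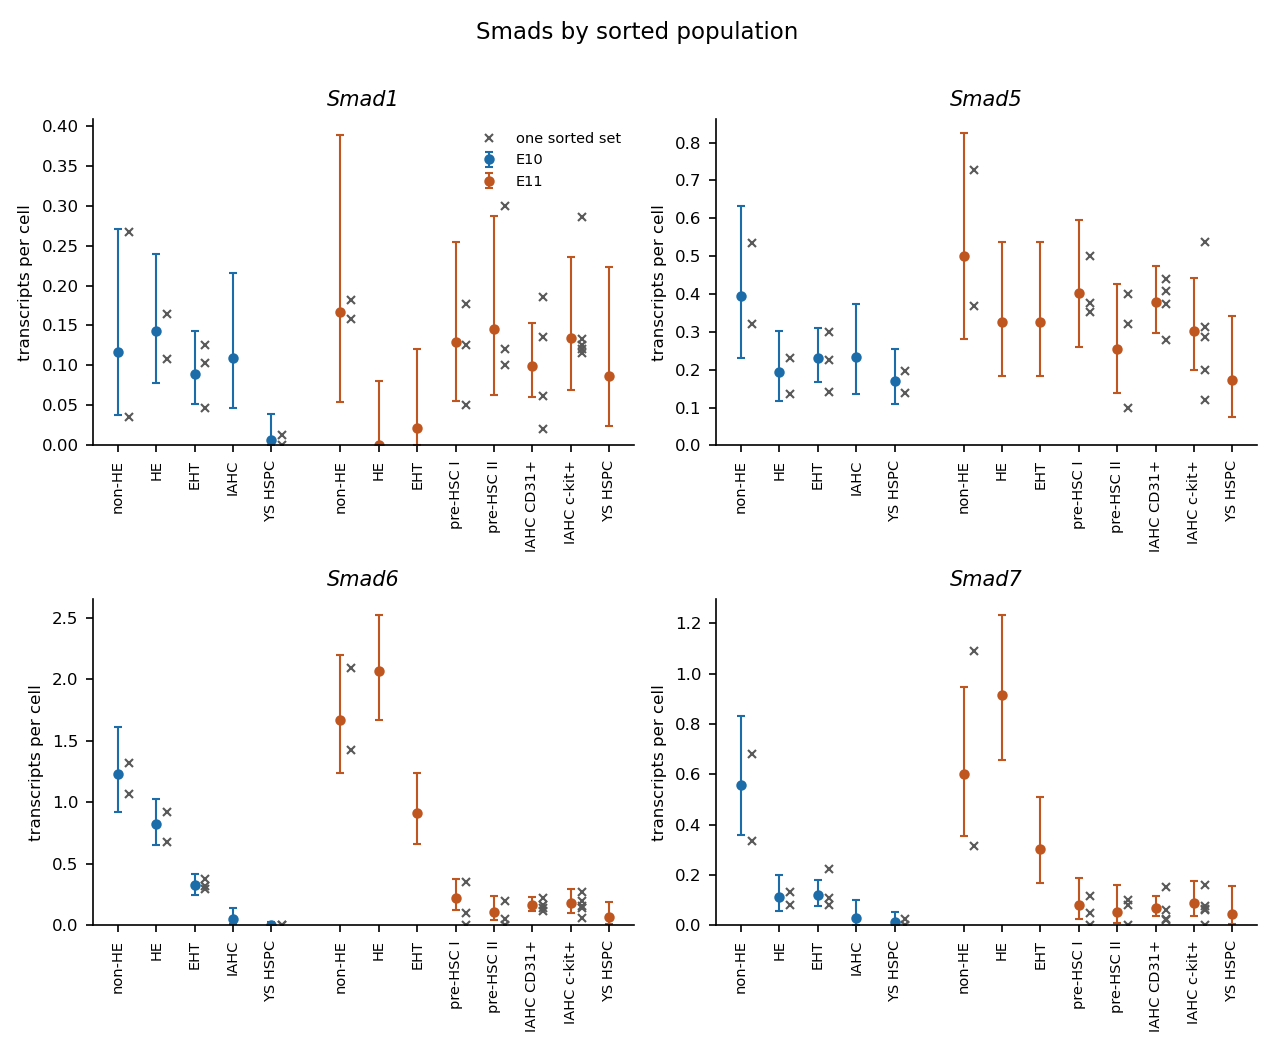
Mean transcripts per cell (vertical axis) of the 2 receptor-activated and 2 inhibitory Smads in each sorted population (horizontal axis), at E10 (blue) and E11 (orange), with exact 95% Poisson intervals and crosses for single sorted sets. *Smad6* is lower at every successive E10 population, *Smad7* is at 0.112 in E10 HE cells and 0.913 in E11 HE cells, and *Smad5* varies between 0.170 and 0.5 in all populations.

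Counts of members called are read against all genes in the same comparison. Between HE and EHT cells 3 members (*Bmpr2*, *Acvrl1* and *Smad6*) of the 6 that reached the minimum level were lower in EHT cells at E10, where 6.71% of 4205 genes were lower, and 0 were higher, where 3.33% of genes were. In the E11 cells 5 of 8 were lower (*Bmpr2*, *Acvrl1*, *Eng*, *Smad6* and *Smad7*) and 0 higher, where 9.49% and 6.75% of 5703 genes were lower and higher. With 0.5 in place of 0.1 transcripts per cell added to each level, 0 members were called lower in EHT than in HE cells at E10 and 2 at E11. None, *Bmp4* included, was then lower in HE than in non-HE cells at either stage. Against EHT cells, 0 were lower in E10 IAHC cells, 1 in E11 IAHC cells and 0 in type I pre-HSCs, where *Eng* was not called higher. In YS HSPCs against IAHC cells 1 was lower at E10 and 0 at E11. When the larger of the 2 E10 HE sets was left out, 1 member (*Acvrl1*) in place of 3 was lower in EHT than in HE cells, and 4 (*Bmp4*, *Smad7*, *Eng* and *Smad5*) in place of 2 were lower in HE than in non-HE cells. Over all 10 members the median log2 ratio with the addition was -0.72 at E10 and -0.98 at E11, beside medians of 0.04 and -0.07 over all genes counted. Between non-HE and HE cells 2 of 8 members were lower in HE cells at E10 (*Bmp4* and *Smad7*, background 4.19% lower and 3.34% higher) and 1 of 9 at E11 (*Bmp4*, background 5.24% lower and 5.6% higher), and 0 were higher at either stage. Without the E11 non-HE set named E11.5, 1 member (*Smad7*) was higher in HE cells. IAHC cells against EHT cells gave 1 of 4 lower at E10 (*Smad6*, background 5.7% lower, 2.25% higher) and 3 of 7 at E11 (*Acvrl1*, *Smad6* and *Smad7*, background 10.6% lower, 5.17% higher). Type I pre-HSCs against EHT cells gave 2 of 7 lower (*Smad6* and *Smad7*, background 9.87%) and 1 higher (*Eng*, background 3.81%). YS HSPCs against IAHC cells gave *Eng* and *Tgfbr2* lower at both stages, of 3 counted at E10 (background 6.4% lower) and 4 at E11 (7.62% lower). After thinning to 3000 transcripts 1 member (*Smad6*) was lower than in EHT cells both for IAHC cells and for type I pre-HSCs, and 1 (*Eng*) in YS HSPCs than in IAHC cells. Without the first of the 2 E10 sets of YS HSPCs, 1 member (*Eng*) in place of 2 was called. No member was called between type II and type I pre-HSCs, of 5 counted (background 3.14% in either direction), or between c-kit+ and c-kit+CD31+ IAHC cells, of 4 counted (background 2.67% in either direction). Leaving out 1 set gave a call in type II of *Acvrl1* (without the third type I set) or *Smad6* (without the second type II set), both lower. *Eng* was at 2.38, 1.53 and 1.2 in the 3 type I sets and at 1.3, 1.2 and 1.0 in the type II sets of the same numbers, lower in type II in each, with an overall log2 ratio of -0.40 (interval -0.88 to 0.08). Between c-kit+ and c-kit+CD31+ IAHC cells *Eng* had a log2 ratio of -0.39 (interval -0.76 to -0.02).

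**Figure D3:**
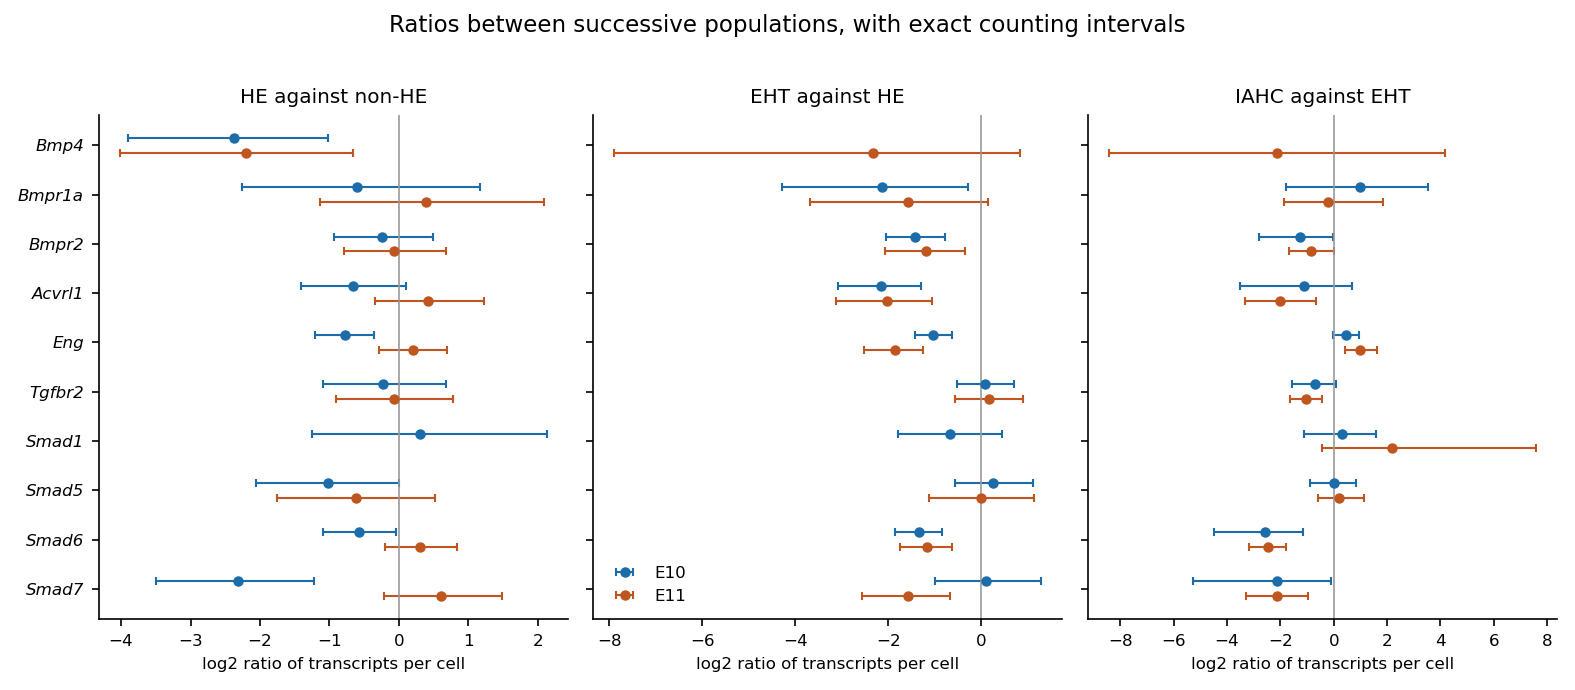
Log2 ratio of transcripts per cell (horizontal axis) for each member between HE and non-HE cells, EHT and HE cells, and IAHC (c-kit+CD31+) and EHT cells, at E10 (blue) and E11 (orange), with exact 95% intervals; ratios with a population at 0 are not drawn. In the middle panel *Bmpr2*, *Acvrl1*, *Eng* and *Smad6* lie below 0 at both stages and *Tgfbr2* and *Smad5* lie at 0 within their intervals, while *Smad7* is at 0.10 at E10 and -1.58 at E11.

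Transcripts of a type I and a type II receptor among the members were seen together in few cells past EHT. Any such type I receptor was counted with any such type II receptor, so BMP and TGF-β receptors were mixed. Receptors outside the members were left out. A transcript of a type I receptor (*Bmpr1a* or *Acvrl1*) together with one of a type II receptor (*Bmpr2* or *Tgfbr2*) was found in 39.5% of E10 non-HE cells (interval 25.0% to 55.6%), 18.4% of HE cells (11.3% to 27.5%), 5.24% of EHT cells (2.54% to 9.42%), 2.74% of IAHC cells (0.334% to 9.55%) and 0 of 141 YS HSPCs. At E11 these shares were 40.0%, 34.8% and 17.4% in non-HE, HE and EHT cells, 6.45% and 5.45% in type I and type II pre-HSCs, and 3.48% and 4.49% in c-kit+CD31+ and c-kit+ IAHC cells. They are shares of cells in which both transcripts were sampled, and cells with unsampled receptor transcripts cannot be told apart from cells without them. A transcript of either type II receptor was found in 40.3% of E10 EHT cells and 43.3% of E11 c-kit+CD31+ IAHC cells, beside 9.95% and 12.4% for either type I receptor. In E10 HE cells the type II share was 55.1% and the type I share 33.7%. Whether the 2 receptor types occurred together more or less often than their separate shares give was not tested. A transcript of *Smad6* or *Smad7* was present in 55.1% of E10 HE cells and 8.22% of IAHC cells, and in 87.0% and 18.9% of the same populations at E11. By contrast, *Smad1* or *Smad5* was present in 29.6% of HE and 30.1% of IAHC cells at E10 and in 30.4% and 35.8% at E11.

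Other genes of the pathway, a list of 52 of which 51 were found, were likewise called lower, and none higher, in EHT cells. In E10 cells, 10 of the 18 that reached the minimum were lower in EHT than in HE cells and 0 higher, beside 6.71% of all genes lower, and at E11 11 of 23 were lower and 0 higher, beside 9.49%. Of 5 common targets of the pathway counted at each stage, 4 were called lower in EHT than in HE cells, and only such targets are given here. *Id1* stood at 1.2 transcripts per cell in E10 HE cells and 0.482 in EHT cells, *Id3* at 2.9 and 0.874, and *Hey1* at 1.28 and 0.204. At E11 *Id1* was at 2.33 in HE and 0.652 in EHT cells, *Id3* at 4.26 and 1.59, and *Id2* at 1.2 and 0.217. The Id genes encode inhibitors of basic helix-loop-helix factors and are induced by BMP signalling in many cells. Of the other type I receptors, 2 were counted at each stage and 1 was called lower in EHT than in HE cells. That was *Acvr1*, which encodes the type I receptor ALK2, at 0.306 in HE and 0.0785 in EHT cells at E10 and at 0.565 and 0.0652 at E11. *Bambi*, a pseudoreceptor that dampens the pathway, was at 0.398 and 0.105 at E10 and 0.674 and 0.261 at E11. With *Bambi* among them, 2 listed co-receptors were counted at each stage, and 2 were lower at E10 and 1 at E11. *Ltbp4*, which encodes a protein that binds latent TGF-β in the matrix, was already lower in HE cells (0.582) than in non-HE cells (2.72) at E10, but at E11 it was at 3.54 in HE and 3.03 in non-HE cells. *Fstl1* was at 13.5 transcripts per cell in E11 HE cells, 4.89 in EHT cells and 1.16 in c-kit+CD31+ IAHC cells. *Smad4*, the Smad shared by both branches, was at 0.326 in E11 EHT cells and 0.113 in type I pre-HSCs. It was called lower there, close to the 2-fold threshold after the addition, and the strain also differed. Between E11 IAHC and EHT cells 2 Smads of the list were counted, *Smad4* among them, and 0 were called. *Fkbp1a*, which encodes the type I receptor-binding protein FKBP12, was found at 1.4 transcripts per cell or more in each of the 13 populations.

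For the 6 members at 0.5 transcripts per cell or more in at least 2 populations, the genes most alike in pattern were sought over 13 populations of both stages, with E11 thinned, by Pearson correlation of log2 levels after adding 0.1, among 2408 genes. The type I and type II pre-HSC points share a sample, the populations differ in strain, and no p is given. *Smad6* was closest to *Fbn1* (r = 0.994), *Epas1* (0.989) and *Efnb2* (0.989). *Acvrl1* was closest to *Hey1* (0.984), *Unc5b* (0.980) and *Mast4* (0.980), *Bmpr2* to *Plagl1* (0.982), *Prex2* (0.982) and *Ppp1r15a* (0.975), and *Smad7* to *Lamp2* (0.974), *Lpar4* (0.973) and *Cd59a* (0.962). For *Eng* these were *Eva1b* (0.947), *Myct1* (0.935) and *H19* (0.926), and for *Tgfbr2* they were *Tmem59* (0.928), *Fkbp10* (0.927) and *S100a16* (0.926).

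Whole IAHCs, picked with their position in the aorta recorded, gave libraries in which the members were rare. Of 109 libraries, 57 had at least 5000 transcripts (5099 to 115328, median 12838), 21 from the ventral and 7 from the dorsal side at E10 and 17 and 12 at E11. Values are transcripts per 10000. The embryo behind each wIAHC is not named in the labels, so wIAHCs of 1 embryo were treated as separate and the p-values are too small where they are not. In such pieces of tissue, fewer cells of a type and less RNA per cell cannot be told apart. None of the 10 members passed edgeR's own filter on low counts, which kept 260 genes. With a looser minimum of 20 transcripts over all libraries, chosen after this was seen, 7709 genes and 8 members were tested, while *Bmp4* (6 transcripts) and *Acvrl1* (8) were not. *Bmp4* was thus nearly absent from the libraries on both sides of the aorta.

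*Smad7* was higher in ventral wIAHCs of E11. On the ventral side it was found in 5 of 21 E10 libraries, with a lowest and median of 0 and a highest of 0.563, and in 12 of 17 E11 libraries, with a median of 0.775 and a highest of 1.99. Most E10 libraries had none and most E11 libraries had some, and the ranges overlapped. The E11 level was 4.49-fold higher in the fit (log2 fold change 2.17, SE 0.53, adjusted p = 0.00259, edgeR quasi-likelihood test). This held in all 17 fits that left out 1 E11 ventral library each (adjusted p from 0.00139 to 0.0150). The E11 library names have 2 prefixes, which the labels do not explain, with *Smad7* in 2 of 4 and 10 of 13 ventral libraries. Without the second prefix, the larger, the log2 fold change was 2.04 with an edgeR adjusted p of 0.210, and without the first it was 2.23 with 0.00505. All E10 libraries had 1 prefix of their own, so stage and prefix cannot be told apart. On the dorsal side *Smad7* was found in 1 of 7 E10 and 5 of 12 E11 libraries, with medians of 0 and highest values of 0.135 and 3.46. The dorsal log2 fold change was 2.70 (SE 0.88), which did not pass the edgeR test (adjusted p = 0.0820) but passed with 2 other scalings (0.0211 and 0.0356), and the difference between sides in the stage effect was -0.53 (adjusted p = 0.966).

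*Smad6* passed the same test on the ventral side, but its call rested on a few libraries. It was found in 7 of 21 E10 libraries (median 0, highest 1.5) and 12 of 17 E11 libraries (median 0.815, highest 6.07). The log2 fold change was 1.5 (SE 0.48, 2.87-fold), with an edgeR adjusted p of 0.0416. It did not pass with DESeq2 (adjusted p = 0.0590), nor in edgeR with no filter on low counts (0.0557), in libraries of at least 10000 transcripts (0.238) or without libraries of over 10% haemoglobin (0.0908). It passed in 14 of 17 fits without 1 E11 ventral library, and the edgeR adjusted p was 0.120, 0.0569 and 0.242 without the 7th, 13th and 17th of these libraries in the order of the table. Without the second E11 prefix the log2 fold change was -0.25 (edgeR adjusted p = 0.965), from 4 libraries of which 2 had a transcript each, and without the first it was 1.87 (0.00721). The *Smad6* difference was thus seen in 1 of the 2 prefixes. Dorsal libraries had *Smad6* in 3 of 7 at E10 (highest 1.77) and 6 of 12 at E11 (highest 1.41), with a log2 fold change of -0.03 (edgeR adjusted p = 0.998). The stage effect did not differ between sides past the threshold (log2 difference 1.55, edgeR adjusted p = 0.793).

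*Bmpr1a* went the other way on the ventral side without passing the threshold, with 10 of 21 E10 libraries (highest 3.17) and 1 of 17 E11 libraries (1.06) holding a transcript (log2 fold change -1.76, SE 0.61, edgeR adjusted p = 0.118). Leaving out the 3 libraries with over 10% haemoglobin transcripts gave -2.82 with an edgeR adjusted p of 0.00856. *Bmpr1a* reached the minimum for testing only through the E10 libraries (18 ventral and 4 dorsal transcripts, beside 2 and 2 at E11). *Eng* was found in 12 of 21 and 13 of 17 ventral libraries and in 5 of 7 and 9 of 12 dorsal libraries, with medians of 0.794 and 0.825 on the ventral side and 1.1 and 1.56 on the dorsal side. Its ventral log2 fold change was 0.04 (edgeR adjusted p = 0.984). *Bmpr2*, *Tgfbr2*, *Smad1* and *Smad5* gave adjusted p-values from 0.414 to 0.968 for the ventral stage contrast in edgeR.

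Of the 8 members tested, 2 were called between stages on the ventral side, where 4.11% of all genes tested were, and 3 had an unadjusted p under 0.05, as did 15.9% of all genes tested. On the dorsal side 0 were called (background 1.67%) and 1 had an unadjusted p under 0.05, beside 14% of all genes. Between sides 0 members were called at E10 (background 0.0778%) and at E11 (0.143%), and in the interaction of stage and side 0 were called (0.195%), with 0 members at an unadjusted p under 0.05 in each, beside 5.75%, 11.4% and 7.13% of all genes. With edgeR's own filter, 31.2%, 9.23%, 0%, 0% and 0% of 260 genes were called in these 5 contrasts. Of 20 other pathway genes tested, 0 were called in any contrast. The 7 endothelial markers, summed, had medians of 8.80 and 5.48 in ventral and dorsal E10 libraries and 10.4 and 11.6 at E11. None of the 7 was called in any contrast, and their part in the *Smad7* difference was not tested further.

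**Figure D4:**
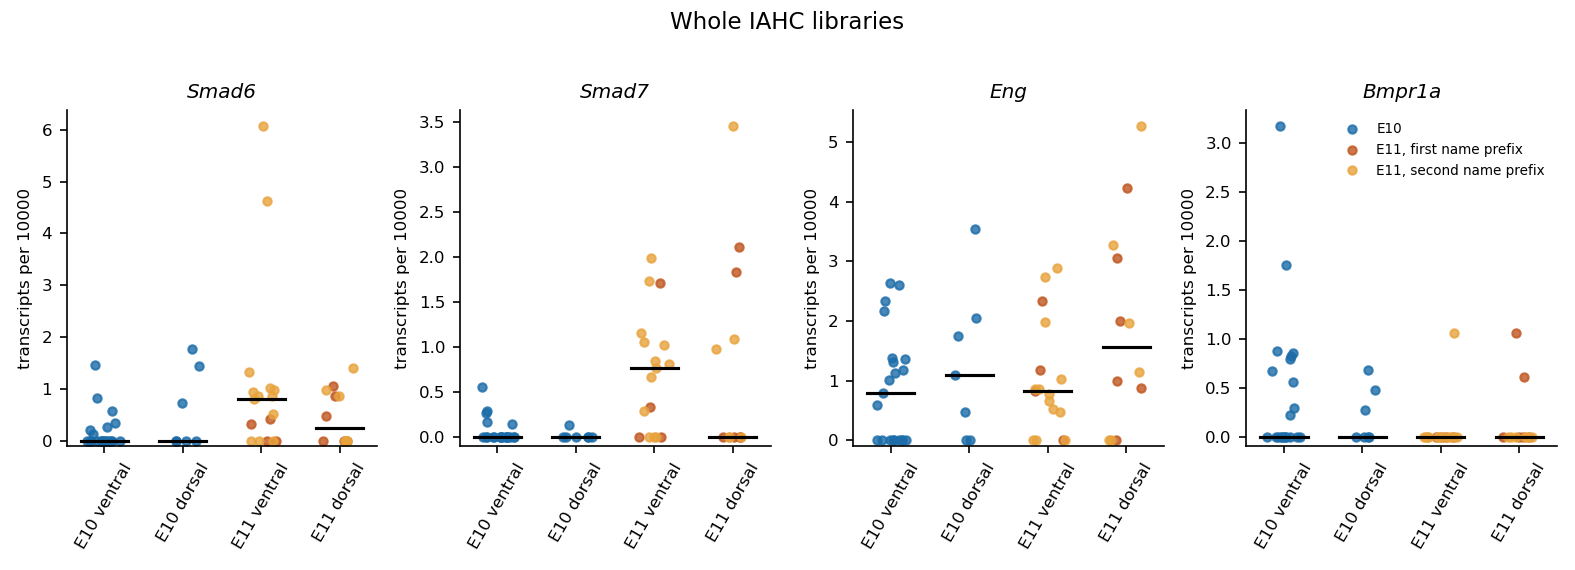
Transcripts per 10000 (vertical axis) of *Smad6*, *Smad7*, *Eng* and *Bmpr1a* in whole IAHC libraries of at least 5000 transcripts, by stage and side of the aorta (horizontal axis), 1 point a library, coloured by name prefix, with the group median as a line. *Smad7* and *Smad6* have medians of 0.775 and 0.815 in E11 ventral libraries and 0 in E10 ventral libraries, with overlapping ranges.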

How the data were processed

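CEL-Seq captures transcript 3' ends with unique molecular identifiers (UMIs). Per the labels, reads were aligned with BWA 0.6.2-r126 to mm10. For single cells the authors deposited estimated counts, which are whole transcripts down-sampled to one total per cell with 0.1 added. The addition was subtracted here. Estimated counts were also deposited for each wIAHC, corrected by the authors for UMI collisions, and were rounded for tests. E11 cells were thinned to 3000 transcripts where stages are compared. Levels, ratios and exact intervals were computed with scipy 1.17.1. wIAHC libraries of at least 5000 transcripts were tested with edgeR 4.0.16 (quasi-likelihood, TMM) over 4 groups of stage and side, with Benjamini-Hochberg adjustment over all genes tested and a threshold of 0.05. DESeq2 1.42.0 was an alternative. The code was tested on simulated data. edgeR's own filter on low counts left none of the members, so a minimum of 20 transcripts was used. The members, gene lists and markers were chosen with earlier results of these data known. Genes named are the members, pathway genes at 0.5 transcripts per cell or more (those described) and the 3 most like genes per member. *Smad4* was named after its values were seen.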

Additional observations from a re-analysis of the deposited data

Results flagged for a closer look

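*Acvrl1* had a log2 ratio of HE to non-HE cells of -0.66 at E10 and 0.42 at E11, with every sorted set on opposite sides at the 2 stages. The difference was not tested. In the 7 dorsal E10 wIAHCs, 1 library stood far above the others for each of *Bmpr2* (2.05 transcripts per 10000), *Acvrl1* (0.686) and *Smad7* (0.135), a different library for each gene. These were 3 of 9 members examined. Chance alone marks about 1 in 20 groups, but this rate does not hold for *Acvrl1* and *Smad7*. All their other libraries were at 0, so any transcript would have been marked. The values for *Acvrl1* and *Smad7* come from a single transcript each.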

How the results depend on the processing

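Single-cell levels were limited by 3000 or 5000 transcripts per cell and wIAHC values by libraries in which most members had few transcripts. Recomputed with other settings, the member ratios with the addition kept their sign wherever they had been called. Not all stayed within the 95% counting intervals, which belong to ratios without the addition. For *Acvrl1* between E10 EHT and HE cells the recomputed log2 ratios ran from -1.52 to -0.61 (interval -3.08 to -1.30). For *Smad6* between E11 IAHC and EHT cells they ran from -2.24 to -1.09 (interval -3.18 to -1.78). With a pseudocount of 0.5 the members called lower were 0 (HE against non-HE), 0 (EHT against HE), 0 (IAHC against EHT) and 1 (YS HSPC against IAHC) at E10, and 0 (HE against non-HE), 2 (EHT against HE), 0 (type I pre-HSC against EHT, with 0 higher), 1 (IAHC against EHT) and 0 (YS HSPC against IAHC) at E11. With a minimum of 0.5 transcripts per cell they were 1, 0 and 1 for HE against non-HE, IAHC against EHT and YS HSPC against IAHC at E10. For EHT against HE at E10 it was 2, as *Acvrl1* (0.398 in HE cells) was not counted. At E11 they were 1, 1 and 1 for type I pre-HSC against EHT, IAHC against EHT and YS HSPC against IAHC. With a minimum of 0.1, HE against non-HE at E11 gave 2. Thinning E11 cells gave 1, 1 and 1 for those 3 E11 comparisons. Leaving out 1 sorted set at a time gave 2 to 4 members lower for HE against non-HE, 1 to 4 for EHT against HE and 1 to 2 for YS HSPC against IAHC at E10, and 2 to 3 for type I pre-HSC against EHT and 0 to 1 for type II against type I pre-HSC at E11. It gave 0 to 1 members higher for HE against non-HE at E11. The counts lower for IAHC against EHT at both stages, and for HE against non-HE and YS HSPC against IAHC at E11, did not change, nor did the counts for c-kit+ against c-kit+CD31+ IAHC cells. E11 EHT against HE had 1 set in each population. wIAHC genes called between stages on the ventral side were 81 with edgeR and its own filter, 310 without a filter, 238 with DESeq2, 132 in libraries of at least 10000 transcripts and 317 with the looser minimum. On the dorsal side they were 24, 40 without composition scaling, 107 without a filter, 62 with DESeq2, 3 in libraries of at least 10000 transcripts and 129 with the looser minimum. Between sides 0 genes were called at E10 and E11 with edgeR (20 and 23 at an unadjusted p under 0.05), 8 and 12 without a filter, 6 and 11 with the looser minimum, and 1 at E11 with DESeq2. The interaction gave 0, 21 without a filter and 15 with the looser minimum. *Smad7* on the ventral side passed in all 7 other settings chosen with the design (edgeR and DESeq2 adjusted p from 0.000658 to 0.0302). *Smad6* passed in 3 of 7 (0.0179 to 0.238), and without the second E11 name prefix it reversed to -0.25. On the dorsal side *Smad7* passed with RLE scaling (log2 fold change 3.38, edgeR adjusted p = 0.0211) and without composition scaling (3.17, 0.0356). The causes were not tested. The labels give no replicate numbers shared between groups, but column names number the type I and type II pre-HSC sets alike. With type II weighted to the sets of type I (replicate block, chosen after seeing the data), the log2 ratio of *Eng* with 0.1 added was -0.36 in place of -0.37, and all 10 members stayed within their intervals. With the name prefix as a term, 0 genes were called between sides at E11. Between the other single-cell populations no paired analysis was possible, because no set numbers are shared there.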
